A study of Mus musculus with 15 samples.

Results

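Transcripts of the large intestine were compared between mice given cymopol and mice given a non-polar algal extract, each at its high dose. The comparison uses the 6 libraries labelled with these treatments, of 15 libraries in the series. The 3 cymopol libraries (replicates 11, 12 and 14) come from male C57Bl/6 mice aged 4 weeks that received 1.4 mmol/kg by gavage. The 3 extract libraries (replicates 21, 23 and 25) come from mice of the same sex, strain and age that received 1.0 g/kg. Both agents were given in Cremophor EL with 10% DMSO on 3 days in a row, and the tissue was collected 12 h later. The 3 vehicle libraries (replicates 2, 4 and 5) are given beside some genes as levels only. The doses are in different units, and how much cymopol the extract holds is not given in the sources used here, so the doses cannot be matched. The labels leave unsaid whether each library is a different mouse, so the p-values may measure a technical spread.

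Cymopol is a brominated hydroquinone with a prenyl side chain, known from the green alga Cymopolia barbata. Hydroquinones can be oxidised to quinones, which react with thiols. Thiol-reactive compounds are known to release the transcription factor NRF2 (gene Nfe2l2) from its inhibitor KEAP1, and NRF2 then turns on genes for glutathione synthesis, quinone reduction and conjugation. The large intestine absorbs water and salt through surface colonocytes and secretes mucus from goblet cells. Fat cells of the mesentery lie against its outer wall.

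The values are FPKM, fragment numbers divided by the length of the transcript and by the size of the library. Of 27351 annotated genes with a row of their own in all 6 tables, 886 reached an FPKM of 1 in 3 or more libraries and entered the main test. Most expressed genes have no annotated row in some library and appear there under a locus assembled in that library alone. When such loci were given to the gene they overlap, 9532 genes could be tested, and this broader set is used for gene groups. Of the 9532 genes, 886 had annotated rows in all 6 libraries, 6199 had matched loci in all 6 and 2447 had both kinds. Protein-coding genes held an estimated 288381 to 343449 fragments in the cymopol libraries and 175040 to 556931 in the extract libraries. In vehicle replicates 2, 4 and 5 they held 52237, 227914 and 25566. Zeros and low values of vehicle replicates 2 and 5 are therefore weak as baseline levels. Across the genes, the correlation between libraries ran from 0.618 to 0.705, with a median of 0.652 over 6 pairs within groups and 0.662 over 9 pairs between groups. The libraries of a group were thus no more alike than libraries of different groups.

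One library stood apart by the gut segment its genes belong to. Fabp6, the bile acid binding protein of the ileum, had 413 FPKM in cymopol replicate 14 and was listed at 0 in the other two cymopol libraries, against 0, 0 and 0.973 FPKM in the extract libraries. Anpep, a brush border peptidase, had 0.167, 1.99 and 457 FPKM in the cymopol libraries and 0, 1.97 and 0.318 in the extract libraries. Apoa1, an apolipoprotein of the small intestine and liver, had 0.800, 4.89 and 549 FPKM with cymopol and 1.29, 9.32 and 3.70 with the extract. The 14 small intestine markers summed to 1653 FPKM in cymopol replicate 14, with 1 of them at 0 or without a value. They summed to 22.1 to 68.8 FPKM in the other 5 libraries, with 4 to 9 at 0 or without a value. Reg3b, an antimicrobial lectin, followed the same pattern with 410 FPKM in that library and at most 15.3 in the others. Of the 5 small intestine markers tested, all had a positive log2 difference, with a median of 1.17, and without cymopol replicate 14 the median was -0.43. The defining markers of the labelled tissue were present in every library: Car1, a carbonic anhydrase of colonocytes, had 1006, 313 and 826 FPKM with cymopol and 1177, 348 and 700.0 with the extract.

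A second pattern cut across the groups. Saa1, an acute phase protein also made by colon epithelium, had 26.4, 637 and 21.9 FPKM in the cymopol libraries and 9.56, 924 and 25.6 in the extract libraries. Cymopol replicate 12 and extract replicate 23 were high, and the other four were low. The same 2 libraries had the highest values of Aqp8, a water channel, with 128 and 170 FPKM, while the other 4 had 6.84 to 45.9. They were also highest in Slc26a3, a chloride and bicarbonate exchanger, with 94.8 and 147 FPKM against 14.1 to 38.8. This pair also had the highest correlation of all library pairs, 0.705. Car1 was lowest in these 2 libraries, with 313 and 348 FPKM against 700.0 to 1177 in the others. The part of either pattern in the results below was not tested.

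**Figure D1:**
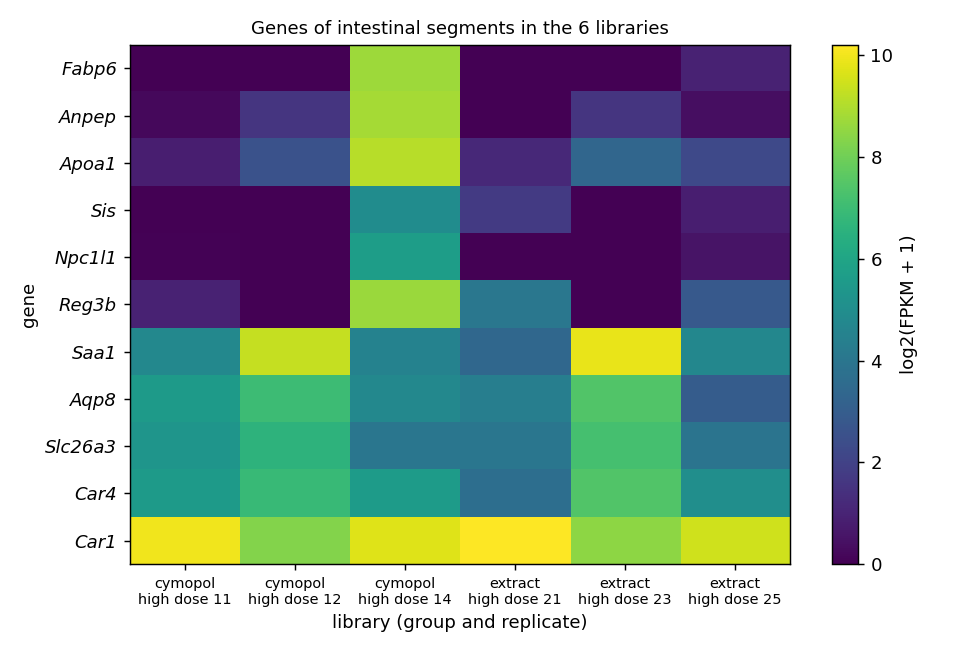
Levels of genes of both patterns as log2(FPKM + 1), one row per gene and one column per library, cymopol left and extract right. Cymopol replicate 14 alone is bright in Fabp6, Anpep, Apoa1, Sis, Npc1l1 and Reg3b, and cymopol replicate 12 and extract replicate 23 are brightest in Saa1, Aqp8, Slc26a3 and Car4.

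All differences below are cymopol minus extract, in means of log2(FPKM + 1). In the main test of 886 genes (limma, Benjamini-Hochberg adjusted p under 0.05), 0 genes were higher with cymopol (0% of those tested) and 1 was lower (0.113%). At an unadjusted p under 0.05 there were 20 higher (2.26%) and 12 lower (1.35%). Every cymopol library was above every extract library for 53 of the 886 genes (5.98%), and below for 23 (2.6%). In the broader set of 9532 genes, 1 was higher (0.0105%) and 1 lower (0.0105%), with 182 (1.91%) and 108 (1.13%) at an unadjusted p under 0.05. Groups did not overlap, with every cymopol library above every extract library, for 438 genes (4.6%), and the reverse held for 233 (2.44%). The median log2 difference of all genes was 0.11 in the main test and 0.12 in the broader set. After median-of-ratios scaling, the broader median was 0.00 and the counts without overlap were 468 (4.91%) higher and 424 (4.45%) lower, so that the share higher went to 52.5% with scaling, against 65.3% without. Without cymopol replicate 14, the shares of all genes without overlap were 10.8% higher and 5.11% lower, now in a split of 2 libraries against 3.

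The gene called lower was Snord11, a small nucleolar RNA of the C/D class, which guide ribose methylation of ribosomal RNA. It lies at chr1:59704790-59704873 on the plus strand (GRCm38), inside the span of Nop58, which codes for a core protein of the same particles. Its transcript from GENCODE M21 is shown because it carries the only call of the main test. The capitals mark the C box ATGATGA and the D box CTGA, searched on the transcript strand only. Of 1507 annotated mouse snoRNA transcripts, 17.6% hold both in this order.
Snord11: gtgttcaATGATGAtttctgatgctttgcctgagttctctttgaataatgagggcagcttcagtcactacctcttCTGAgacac
Snord11 was listed at 0 in all 3 cymopol libraries, against 97.3, 151 and 31.0 FPKM in the extract libraries. It was also listed at 0 in the 3 vehicle libraries and in all 6 low dose libraries. Protein-coding genes held an estimated 29130 to 183923 fragments in the low dose libraries, so zeros in the shallow ones do not show absence of Snord11. The adjusted p was 0.0163 in the main test (limma, Benjamini-Hochberg) and 0.0032 in the broader set. Those extract values rest on an estimated 2, 6 and 1 fragments, since the transcript is only 84 bases long. With fragments in place of FPKM the adjusted p was 0.804. In the main set it ran from 0.0567 to 0.148 when any one library but extract replicate 25 was left out, and was 0.0149 without that one. Nop58 itself had 4.43, 12.9 and 5.15 FPKM with cymopol and 4.54, 5.11 and 0.930 with the extract, and those groups overlap. Of 65 snoRNAs tested, 3 had higher and 2 lower groups without overlap (4.6% and 2.44% of all genes), shares close to those of all genes, and their median log2 difference was 0.03.

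The gene called higher in the broader set was mt-Nd6, the complex I subunit coded on the light strand of the mitochondrial genome. It had 45.1, 79.7 and 40.9 FPKM in the cymopol libraries and was listed at 0 in the 3 extract libraries. The vehicle libraries had 40.9, 29.8 and 0 FPKM. Its adjusted p was 0.0032 (limma, Benjamini-Hochberg). The cymopol values come from assembled loci, with an estimated 18, 36 and 17 fragments, while 2 of the 3 extract zeros come from annotated rows. mt-Co1 was listed at 0 in all 3 cymopol libraries and in both extract libraries that list it, so a zero for a mitochondrial gene is given here as a listing and not as absence of the transcript. The 11 mitochondrially encoded genes with a row summed to 45.1, 79.7 and 40.9 FPKM with cymopol and 0, 78.9 and 1.05 with the extract. In extract replicate 23, 10 of the 11 were at 0 or without a value, and a gene other than mt-Nd6 held the 78.9 FPKM. With all 15 libraries in the fit the adjusted p of mt-Nd6 was 0.109.

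Gm44364, annotated as a microRNA gene within H2afj on the opposite strand, was nearest to the threshold on the higher side. It had 37.8, 43.8 and 9.98 FPKM with cymopol and was listed at 0 in the extract and vehicle libraries, with an adjusted p of 0.0531 in the main test (limma, Benjamini-Hochberg). It was singled out after its values were seen. Its cymopol values rest on an estimated 3, 3 and 1 fragments, and the labels do not say whether reads were counted by strand, so reads of H2afj cannot be told apart from it. H2afj had 3.79, 12.7 and 2.80 FPKM with cymopol and 9.21, 7.66 and 6.42 with the extract.

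**Figure D2:**
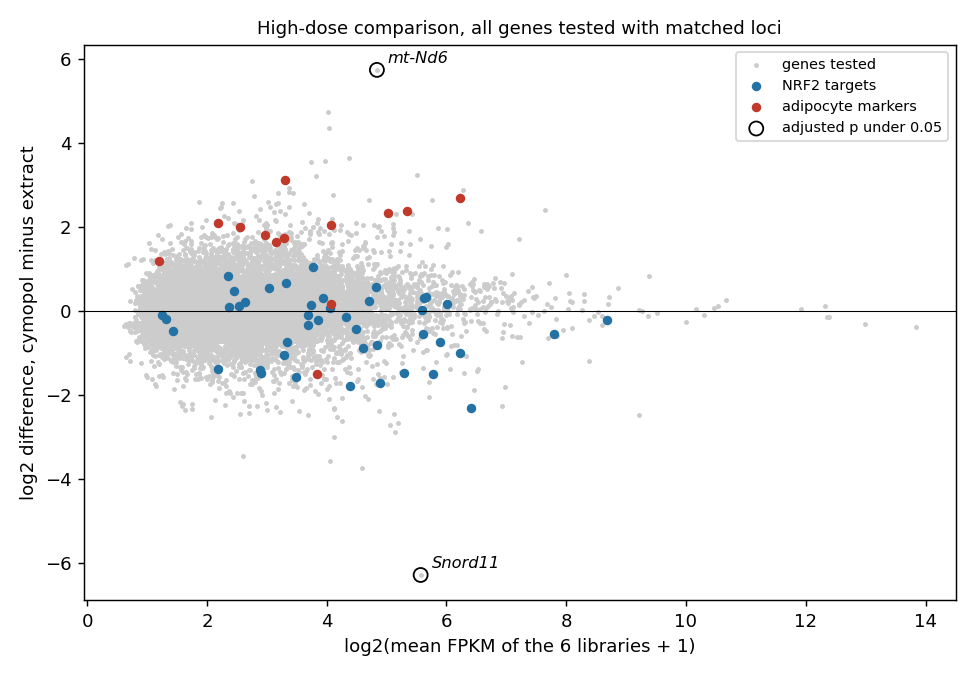
Log2 difference, cymopol minus extract, against mean level for the 9532 genes with matched loci, one point per gene. Snord11 at -6.29 and mt-Nd6 at 5.75 are circled as called, 11 of 13 adipocyte markers lie at 1.19 or above, and the NRF2 targets lie on both sides of 0.

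Adipocyte genes had the largest list median among the lists with more than 1 gene tested. Of 16 markers, 13 were tested, and in 9 of them every cymopol library was above every extract library, with 0 the other way (4.6% of all genes higher, 2.44% lower). No member passed the adjusted threshold, and 11 had an unadjusted p under 0.05, all higher. The median log2 difference was 2.00, beside 0.12 for all genes. Plin1, which coats the lipid droplet, had 24.8, 12.2 and 13.2 FPKM with cymopol, against 2.18, 0.797 and 0.258 with the extract. Every cymopol value was more than 5 times the highest extract value. The log2 difference was 3.13 ± 0.66 (SE, n = 3 each), and the adjusted p from limma was 0.681. Cfd, the adipocyte-secreted serine protease adipsin, had 153, 145 and 77.3 FPKM with cymopol and 45.8, 12.7 and 8.82 with the extract. Its mean was 5.57-fold higher with cymopol, and its groups did not overlap. Fabp4, the fatty acid carrier of fat cells, had 58.4, 69.8 and 29.6 FPKM with cymopol and 14.96, 3.53 and 12.6 with the extract. Adipoq, the hormone adiponectin, had 18.1, 6.40 and 9.86 FPKM with cymopol and 2.24, 2.54 and 2.13 with the extract, so the extract libraries were close to each other and the cymopol libraries spread.

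Lipe and Lpl, a lipase inside fat cells and one on the vessel wall, also separated the groups, with log2 differences of 2.00 and 1.74. Cd36, a fatty acid uptake receptor that is not on the adipocyte list, had 11.2, 7.33 and 4.45 FPKM with cymopol and 3.79, 0.876 and 0.548 with the extract. Car3, an abundant carbonic anhydrase of fat, had 100.3, 83.6 and 19.3 FPKM with cymopol and 21.3, 5.97 and 7.003 with the extract, and replicate 14 fell inside the extract range. Plin4 overlapped in the same way, with 41.8, 37.7 and 3.42 FPKM with cymopol and 6.67, 3.65 and 1.85 with the extract. The other members that overlapped, Pparg and Pck1, were outside the pattern. Pparg, the transcription factor of fat cell formation, had 9.52, 6.85 and 1.44 FPKM with cymopol and 4.28, 23.4 and 34.4 with the extract, a log2 difference of -1.50. The sign of Pparg turned to 0.02 when fragments were used in place of FPKM. Pck1, which makes phosphoenolpyruvate for glycerol synthesis, had 17.3, 16.9 and 16.2 FPKM with cymopol and 16.7, 13.6 and 14.0 with the extract.

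The summed level of the 16 markers was 487, 418 and 203 FPKM in the cymopol libraries and 132, 69.1 and 90.1 in the extract libraries. The vehicle libraries spanned the whole range, with sums of 14.7, 763 and 46.4 FPKM. The 14 markers of epithelium in general summed to 69.0, 803 and 877 FPKM there, so the low sum of vehicle replicate 2 is not particular to fat. In such bulk tissue, more fat cells in a piece and more RNA per fat cell cannot be told apart. The pattern did not rest on replicate 14: without it, 12 of the 13 separated the groups (10.8% of all genes) and the median was 2.24. After median-of-ratios scaling, 7 separated the groups (4.91% of all genes) and the median was 1.75. Plin1 values come from assembled loci in the cymopol libraries and from annotated rows in the extract libraries. Only 5 markers have the same kind of row in all 6 libraries, and of these 3 separated the groups, with a median of 1.74.

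Genes of fatty acid synthesis mostly ran the same way, with 14 differences above 0 and Acacb, the exception, at -0.27. Of 16 listed, 15 were tested, 6 separated the groups with cymopol higher and 0 with cymopol lower (4.6% and 2.44% of all genes), and the median was 0.83. None passed the adjusted threshold. Scd1, which puts the double bond into stearate, had 79.3, 36.8 and 23.9 FPKM with cymopol and 13.8, 7.87 and 7.46 with the extract, 4.81-fold higher in the mean. Fasn, fatty acid synthase, had 53.1, 51.1 and 25.1 FPKM with cymopol and 18.3, 6.48 and 6.18 with the extract, 4.17-fold higher. Srebf1, the transcription factor that drives these enzymes, had 54.6, 67.7 and 11.2 FPKM with cymopol and 1.58, 5.34 and 10.8 with the extract. The lowest cymopol library and the highest extract library of Srebf1 nearly touch, and 2 of its cymopol values rest on an estimated 2 fragments each. Thrsp, a regulator of lipid synthesis that is also on the adipocyte list, had 11.5, 3.34 and 4.61 FPKM with cymopol and 1.13, 0 and 0.790 with the extract. Dgat2, the last step of triglyceride synthesis, had 12.1, 12.6 and 22.7 FPKM with cymopol and 9.35, 5.24 and 5.14 with the extract. Acly, which makes cytosolic acetyl-CoA, overlapped between the groups, with 12.5, 47.1 and 23.4 FPKM against 9.64, 29.9 and 9.81. Fat cells express all of these genes, and the adipocyte marker sums above were also higher in the cymopol libraries than in the extract libraries. Scd1, Fasn and Srebf1 were lowest of the cymopol libraries in replicate 14, as the sum was, while Dgat2 was highest there. In vehicle replicate 5, Adipoq, Plin1, Cfd and Fabp4 were listed at 0, while Scd1 had 54.0 and Fasn 27.8 FPKM. What part fat cells have in these values was not tested. With scaling, 4 of the 15 separated the groups with cymopol higher (4.91% of all genes) and the median was 0.61. Only 10 have the same kind of row in all 6 libraries, and of these 3 separated the groups, with a median of 0.68.

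**Figure D3:**
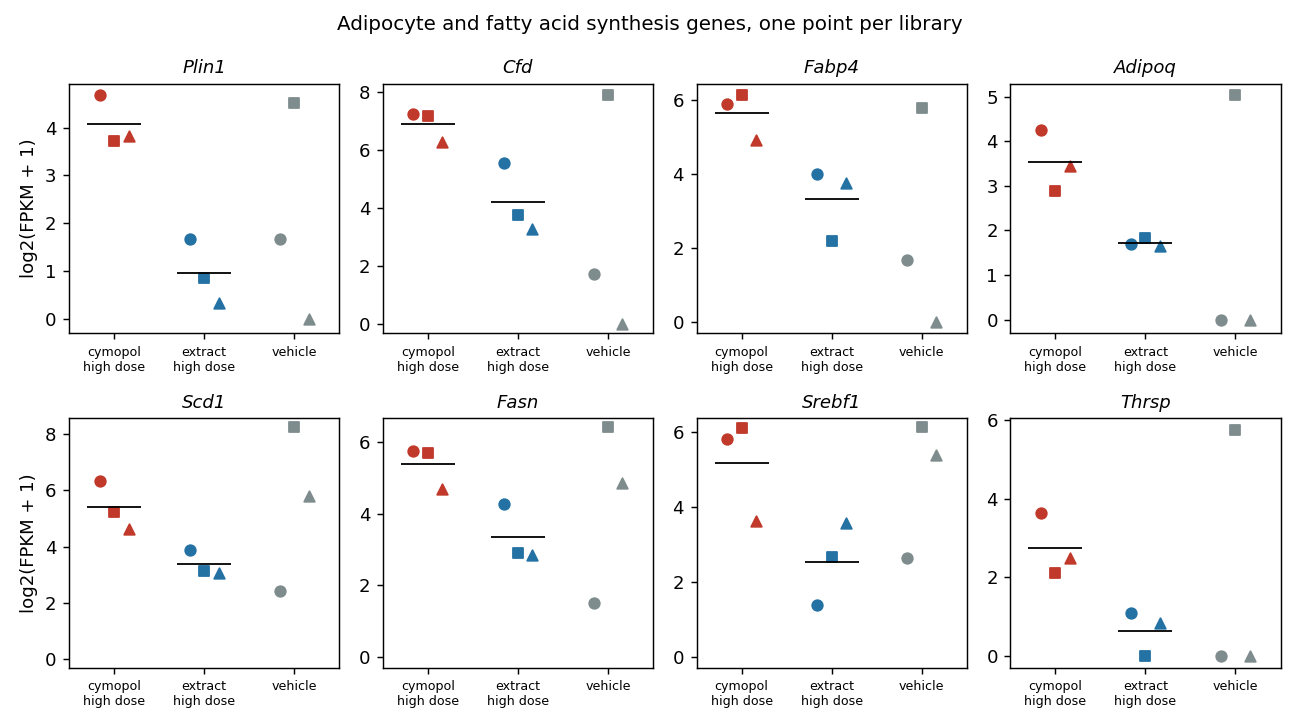
Levels of 4 adipocyte genes (top) and 4 genes of lipid synthesis (bottom) as log2(FPKM + 1), one point per library with shapes in the order of the replicate numbers; black lines are means of the cymopol and extract libraries. All 8 genes separate cymopol from extract, and vehicle replicate 4 is high in each.

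Of 21 genes of cholesterol synthesis and uptake, 18 were tested and 2 separated the groups with cymopol higher (4.6% of all genes), with a median of 0.38. Cyp51, lanosterol demethylase, had 5.36, 6.10 and 13.1 FPKM with cymopol, against 0, 0 and 2.02 with the extract. It was listed at 0 in the vehicle libraries, and its adjusted p was 0.852. Sqle, squalene epoxidase, had 3.25, 24.2 and 15.2 FPKM with cymopol and 4.23, 5.56 and 2.403 with the extract, so its groups overlap.

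Among NRF2 targets none was called, and more differences were below 0 than above it. Of 49 listed, 43 were tested, 1 separated the groups with cymopol higher (4.6% of all genes) and 3 with cymopol lower (2.44%). All 5 members with an unadjusted p under 0.05 were lower. The median log2 difference was -0.20, and 17 of 43 differences were above 0, beside 5542 of 9532 for all genes. With scaling the median was -0.37, beside -0.002 for all genes. With fragments it was -0.64, beside -0.09 for all genes. The median with fragments includes Gpx2 and Txnrd1, whose estimates are near 0 fragments. Over members with the same kind of row in all 6 libraries the median was only 0.03, beside 0.12 for all genes of that kind.

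The 3 members lower without overlap were a carbonyl reductase, a quinone reductase and an efflux pump. None of them has the same kind of row in all 6 libraries: Cbr3 has annotated rows in 3 cymopol and 1 extract libraries, Nqo1 in 2 and 1, and Abcc4 in 2 and 0, and the other values come from assembled loci. Of the 29 NRF2 targets with the same kind of row throughout, 1 separated the groups with cymopol higher and 0 with cymopol lower. Cbr3, a carbonyl reductase, had 15.9, 8.21 and 12.6 FPKM with cymopol and 59.9, 20.7 and 55.4 with the extract, 3.71-fold lower in the mean with groups that do not overlap. The log2 difference was -1.71 ± 0.59 (SE, n = 3 each; adjusted p = 0.999, limma). Nqo1, the quinone reductase most used as a readout of NRF2, had 5.15, 5.31 and 4.19 FPKM with cymopol and 22.4, 7.45 and 8.03 with the extract. Its cymopol libraries lay close together, below the lowest extract library, and it was 2.59-fold lower in the mean. The vehicle libraries had 0.167, 0 and 0 FPKM of Nqo1. The third was Abcc4, an efflux pump for conjugates, with 1.18, 1.94 and 0.610 FPKM against 11.8, 1.98 and 3.80, where the groups all but touch.

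Both subunits of the enzyme that limits glutathione synthesis had lower means with cymopol, and their groups overlap. Gclc, the catalytic subunit, had 22.2, 3.02 and 19.7 FPKM with cymopol and 411, 14.9 and 34.5 with the extract. The value of 411 in extract replicate 21 rests on an estimated 82 fragments, while 34.5 in extract replicate 25 rests on 415, so this FPKM depends on the transcript length assigned to the locus. Gclm, the modifier subunit, had 12.1, 11.9 and 32.0 FPKM with cymopol and 110.3, 32.3 and 30.5 with the extract. Hmox1, heme oxygenase, had 4.38, 1.88 and 1.02 FPKM with cymopol and 23.0, 5.10 and 2.96 with the extract. Extract replicate 21 was the highest of the 6 libraries in Gclc, Gclm, Hmox1 and Nqo1.

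The conjugating enzymes and thioredoxin genes were mixed. Gsta1, a glutathione transferase, had 4.55, 1.61 and 1.79 FPKM with cymopol and 18.5, 3.42 and 8.86 with the extract. Gstm1, another, had 48.7, 82.9 and 25.9 FPKM with cymopol and 103, 102 and 80.8 with the extract. Both have near-identical relatives, so their values are uncertain. Srxn1, sulfiredoxin, had 9.75, 5.12 and 38.6 FPKM with cymopol and 55.0, 17.9 and 13.9 with the extract. Gpx2, the glutathione peroxidase of gut epithelium, went the other way with 14.3, 25.9 and 11.3 FPKM with cymopol and 13.8, 7.01 and 3.83 with the extract, a log2 difference of 1.05. Txnrd1, thioredoxin reductase, had a log2 difference of 0.25, which was -0.11 without cymopol replicate 14 and -0.16 with fragments. The intervals of Gpx2 and Txnrd1 give an estimate near 0 fragments, so their depth is not known. The value of -0.16 with fragments therefore cannot measure Txnrd1. Slc7a11, the cystine importer, and Cyp1a1, a target of the AHR receptor, did not reach the level needed for a test.

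NRF2 binds with small MAF proteins to the antioxidant response element, here searched as TGACNNNGC on both strands. Of 32851 RefSeq promoters of 300 bases (GRCm38.p6, 250 before the start and 50 after it), 12.4% hold this pattern. It is in 14.1% of promoters of the genes tested and in 27.1% of the 48 promoters of 37 tested NRF2 targets that matched. The 250 bases before the start of Gclm and of Mafg are shown, since both are NRF2 targets with lower means with cymopol and a match in this window. The match is in capitals, on the other strand in both. A match is a pattern of letters and not a bound site.
Gclm, chr3:122245307-122245556, plus strand: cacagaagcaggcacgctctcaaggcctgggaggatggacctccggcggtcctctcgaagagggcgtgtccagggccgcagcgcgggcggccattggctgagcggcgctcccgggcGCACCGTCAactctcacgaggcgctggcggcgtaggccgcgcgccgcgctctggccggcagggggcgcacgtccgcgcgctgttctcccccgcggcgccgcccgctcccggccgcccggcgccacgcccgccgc
Mafg, chr11:120633548-120633797, minus strand: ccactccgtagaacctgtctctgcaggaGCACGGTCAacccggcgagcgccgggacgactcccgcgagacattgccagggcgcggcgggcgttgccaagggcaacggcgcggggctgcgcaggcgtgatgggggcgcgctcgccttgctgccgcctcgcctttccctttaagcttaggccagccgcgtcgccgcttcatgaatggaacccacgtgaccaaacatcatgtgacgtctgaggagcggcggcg
Mafg, a small MAF partner of NRF2, had 9.91, 1.62 and 13.5 FPKM with cymopol and 35.4, 8.10 and 51.1 with the extract, with at most 2 estimated fragments in each cymopol library. Nfe2l2 itself had 6.38, 8.80 and 7.98 FPKM with cymopol and 7.67, 11.2 and 41.7 with the extract.

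**Figure D4:**
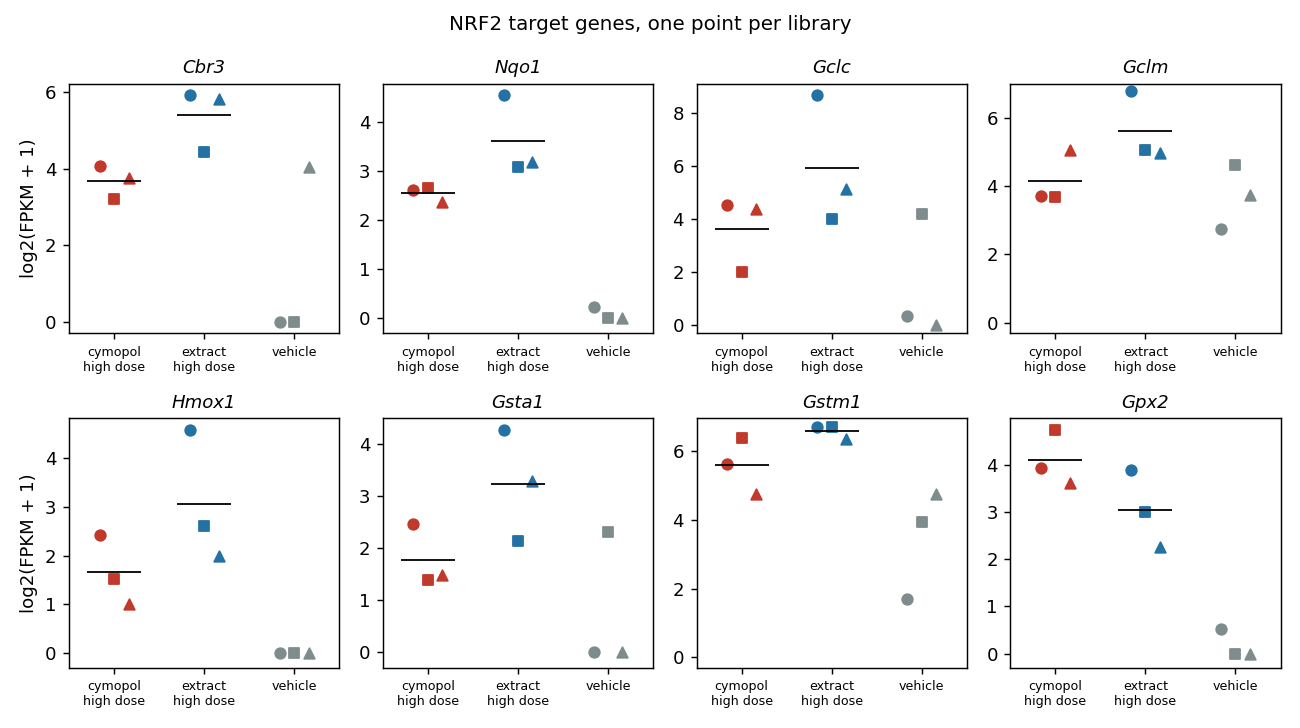
Levels of 8 NRF2 target genes as log2(FPKM + 1), one point per library with shapes in the order of the replicate numbers; black lines are means of the cymopol and extract libraries. Cbr3 and Nqo1 separate the groups with cymopol lower, the other genes overlap, and Gpx2 has the higher mean with cymopol.

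Histone genes of the replication-dependent clusters, a list written after the values were seen, stood higher with cymopol among genes with annotated rows in all libraries. Of 21 tested there, 5 separated the groups with cymopol higher and 0 with cymopol lower (5.98% and 2.6% of the 886 genes). Hist1h1a, a linker histone, had 8.19, 16.03 and 8.18 FPKM with cymopol and 0, 2.66 and 0.298 with the extract. Hist1h4h, a core histone, had 18.2, 61.7 and 28.1 FPKM with cymopol and 5.03, 10.6 and 5.46 with the extract, 5.13-fold higher in the mean (adjusted p = 0.792, limma). Hist1h2bl, Hist1h2ac and Hist1h2bc also separated the groups, with log2 differences of 2.84, 1.30 and 1.10. In the broader set, 31 histone genes were tested, 6 separated the groups with cymopol higher and 0 with cymopol lower (4.6% and 2.44% of all genes), and the median was 0.65. Near-identical copies within the clusters make the value of each single histone gene uncertain. Of 21 cell cycle genes tested, 1 separated the groups with cymopol higher (4.6% of all genes), with a median of 0.26. Of the 15 with the same kind of row in all 6 libraries, 0 separated the groups, so the 1 gene mixes both kinds of row. That gene was Mcm5, a subunit of the replicative helicase, with 4.16, 3.72 and 2.38 FPKM with cymopol and 1.56, 0.662 and 0.152 with the extract. Birc5, survivin of the mitotic spindle, was listed with the apoptosis regulators and not with the cell cycle genes. It had 3.91, 5.30 and 1.20 FPKM with cymopol and 0, 0 and 0.704 with the extract, so its groups do not overlap. Of 16 apoptosis regulators tested, 1 separated the groups in each direction (4.6% of all genes higher, 2.44% lower), with a median of 0.18.

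Other genes with the smallest p on the higher side, none of which passed, came from several functions. C1qa, the complement component of macrophages, had 6.15, 11.6 and 5.64 FPKM with cymopol and 0, 3.60 and 0.762 with the extract. Csf1r, the receptor that macrophages need, separated the groups as well, with 2.33, 4.20 and 2.33 FPKM against 0, 1.79 and 0.596. Of 9 macrophage and dendritic cell markers tested, 2 separated the groups with cymopol higher and 0 with cymopol lower (4.6% and 2.44% of all genes). Of these markers, 7 differences were above 0, and the median was 0.28. Aqp1, the water channel of small vessels, had 6.56, 6.66 and 8.11 FPKM with cymopol and 3.72, 2.69 and 3.19 with the extract, 2.22-fold higher with groups tight on both sides. C1qtnf12, which codes for a hormone of fat tissue, had 4.89, 14.0 and 14.7 FPKM with cymopol and 0, 0 and 1.15 with the extract. Prkca, protein kinase C alpha, had 17.5, 39.2 and 30.5 FPKM with cymopol and 3.10, 4.86 and 2.13 with the extract. Other loci inside Prkca held an estimated 259 to 532 fragments in the cymopol libraries and 200 to 1097 in the extract libraries, many more than the matched locus, so its value stands for part of the gene. Rhoq, a small GTPase, had 16.1, 34.1 and 5.39 FPKM with cymopol and 0.920, 1.71 and 1.15 with the extract. Rasgrp2, an activator of the GTPase Rap, Washc3, of the endosomal WASH complex, and Naa38, of an N-terminal acetyltransferase, had log2 differences of 2.48, 2.58 and 3.59. Rpp25l and 2700081O15Rik had 2.48 and 2.60. Eef1a2, Dpagt1, Pdcd6 and Cgref1 separated the groups with smaller differences, between 1.06 and 1.24.

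On the lower side, Hnrnph3, a splicing factor, had 8.58, 7.27 and 14.1 FPKM with cymopol and 38.2, 26.4 and 35.1 with the extract, 3.33-fold lower in the mean. Ddc, the decarboxylase that makes serotonin and dopamine, had 10.3, 3.26 and 6.00 FPKM with cymopol and 21.2, 36.4 and 15.8 with the extract, 3.75-fold lower. Mgea5, which removes O-linked GlcNAc from proteins, had 3.46, 9.72 and 6.62 FPKM with cymopol and 65.1, 15.5 and 93.8 with the extract. Its estimated fragments were 61, 72 and 78 with cymopol and 21, 298 and 56 with the extract, so they do not follow the FPKM. Ndufb11 and Ndufa6, accessory subunits of complex I, had log2 differences of -2.40 and -1.57. The 50 nuclear genes of oxidative phosphorylation that were tested had a median of 0.08. Of these, 2 separated the groups in each direction (4.6% of all genes higher, 2.44% lower). Hrh1, the histamine H1 receptor, had 0.816, 1.43 and 0.676 FPKM with cymopol and 19.1, 4.08 and 6.82 with the extract. Large2, Rnf215, Rmnd1, Sec61a2 and Bphl also separated the groups, with log2 differences between -2.52 and -2.11. In the main test of annotated rows, Pcbd1, a cofactor recycling enzyme, Ccdc71, Tmem242, Atg101, of the autophagy start complex, and Tmem176a were lower without overlap, with log2 differences between -1.47 and -0.76. The adjusted p of each gene in this paragraph was at least 0.8 (limma).

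No marker of another cell type was called, and the counts of separated members below stand beside 4.6% of all genes higher and 2.44% lower. Of 18 surface colonocyte markers tested, 0 separated the groups with cymopol higher and 1 with cymopol lower, Slc9a3, a sodium and hydrogen exchanger, with 13.0, 11.1 and 8.54 FPKM against 22.7, 21.1 and 32.8. Of 9 goblet cell markers tested, 1 separated the groups with cymopol lower, Spdef, a transcription factor of goblet cells, with 7.28, 4.69 and 7.87 FPKM against 14.9, 19.3 and 12.8. Tff3, a secreted goblet cell peptide, overlapped, with 72.3, 139 and 103 FPKM against 55.0, 216 and 55.5. The 15 smooth muscle markers tested were all above 0 in difference, with a median of 0.24 and 0 separated. Of 18 genes of fibroblasts and matrix, 16 differences were above 0, the median was 0.59, and 1 separated the groups. That gene was Vim, a filament protein of mesenchymal cells, with 38.5, 52.9 and 32.7 FPKM against 24.7, 25.4 and 13.8. The 4 MHC class II genes tested had a median of 1.51 with groups that overlap in all 4, and H2-Aa had 6.82, 31.8 and 15.8 FPKM with cymopol and 0, 14.8 and 4.24 with the extract. Of 47 cytosolic ribosomal protein genes tested, 38 differences were above 0, with a median of 0.36 and 1 gene separated. With scaling, the medians of these lists came closer to 0: 0.24 for surface colonocytes (0.41 without scaling), 0.05 for goblet cells (0.21 without), 0.07 for smooth muscle and 0.20 for ribosomal proteins. With scaling, 1 surface colonocyte marker separated the groups with cymopol higher and 0 with cymopol lower.

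**Figure D5:**
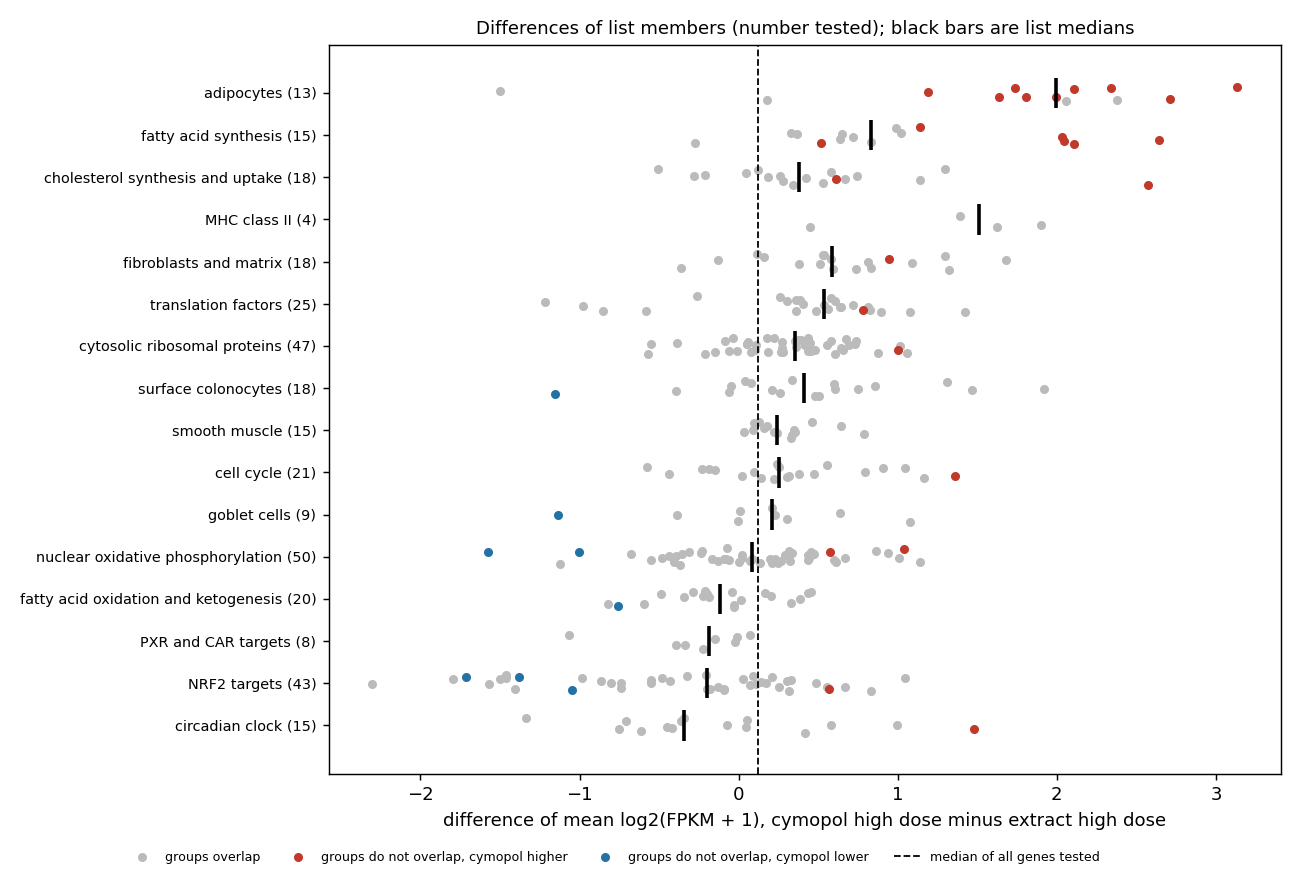
Log2 difference, cymopol minus extract, of each member tested in 16 gene lists, with the number tested in brackets; points are genes, coloured where the groups do not overlap, black bars are list medians, and the dashed line is the median of all genes at 0.12. Adipocyte markers have the rightmost median, at 2.00, and the circadian clock list the leftmost, at -0.35.

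Other lists held few members whose groups separate, beside the same 4.6% higher and 2.44% lower of all genes. The 15 circadian clock genes tested had a median of -0.35, which was 0.41 without extract replicate 23. Hlf, a clock output factor, was their only member that separated the groups, with 3.52, 2.90 and 2.33 FPKM with cymopol and 0.0734, 0.248 and 1.01 with the extract, on at most 2 estimated fragments per library. Of 16 PXR and CAR target genes, 8 were tested, with a median of -0.19 and 0 separated. Of 20 genes of fatty acid oxidation and ketogenesis tested, 1 separated the groups with cymopol lower, Hadhb, of the mitochondrial trifunctional protein, with 15.6, 14.5 and 9.47 FPKM against 28.5, 18.7 and 21.4. Of 20 chaperone genes of the endoplasmic reticulum, 1 separated the groups with cymopol higher, Pdia6, a disulfide isomerase, with 8.48, 14.4 and 10.8 FPKM against 3.17, 7.55 and 3.03. Of 14 p53 targets tested, 3 separated the groups with cymopol higher (4.6% of all genes), Perp, Phlda3 and Bbc3. After scaling 1 did (4.91% of all genes) and 1 separated the other way (4.45%). Bbc3, which promotes apoptosis, had 5.18, 5.54 and 20.1 FPKM with cymopol and 2.78, 4.49 and 3.12 with the extract. The 3 mesothelium markers tested had a median of 0.78 with 0 separated, and without cymopol replicate 14 all 3 separated the groups (10.8% of all genes). Msln, mesothelin of the serosal lining, had 6.26, 4.16 and 0.272 FPKM with cymopol and 0.167, 1.43 and 0.628 with the extract.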

How the data were processed

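RNA of the large intestine was sequenced by the submitters after removal of ribosomal RNA from 90 ng of total RNA, per the labels' protocols. The submitters' processing notes name the aligner STAR 2.4.0j and the build GRCm38.p4. The deposited values are FPKM with a lower and an upper bound, in columns of a Cufflinks gene table, per the file headers. The version and settings of the quantifier are not given.

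Genes were matched by Ensembl identifier without version, and 37764 of 38189 identifiers are in GENCODE M21. A gene with no annotated row in a library took the value of an assembled locus there if both were each other's best match and overlapped by 0.5 or more of their union. Values were analysed as log2(FPKM + 1) with limma 3.58.1 in R 4.3.3, with 1 mean per group, an intensity trend and two-sided tests, adjusted by Benjamini-Hochberg over all genes tested. A fold change is a ratio of mean FPKM, and differences on the log2 scale understate the change of low genes. The exact permutation test of 3 libraries against 3 cannot go below p = 0.1. Fragment numbers were derived from the FPKM bounds and are approximate: 1181 of 9532 genes had an FPKM of at least 1 on under 0.5 estimated fragments in at least 1 library. No counts were available to the tests, and exact zeros may be failed estimates.

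Named genes are the NRF2 and AHR genes always given, called genes, protein-coding genes with the smallest p whose groups do not overlap (up to 12 each way, mean FPKM of at least 5), and up to 4 members per list. Genes given beyond this rule were chosen after their values were seen, among them the segment genes, Nop58, H2afj, Gm44364 and further adipocyte and lipid genes. The comparison, the lists and the rules were chosen with earlier results of these data known. The test was tried on simulated data with known changes. Alternatives changed the pseudocount, filter, scaling, gene types, rows, weights and libraries used. Those on the broader set, and the fit to genes with 1 kind of row, were added after seeing the data.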

Additional observations from a re-analysis of the deposited data

How the results depend on the processing

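No paired analysis was possible because the replicate numbers of the groups differ. In the main test of 886 genes, the count higher was 0, and it was 1 with a pseudocount of 0.1, median-of-ratios scaling, quantile normalization, array weights or matched loci added. With the first 4 of these Gm44364 passed, on an estimated 1 to 3 fragments per cymopol library, and with matched loci mt-Nd6 passed, on 17 to 36. The count lower was 1, and it was 0 with an FPKM of at least 1 in all 6 libraries or with protein-coding genes only. Both filters remove Snord11, a snoRNA listed at 0 with cymopol, before the test, so they cannot say whether its call holds. With matched loci, the count higher was 1, and it was 2 with a pseudocount of 0.1 or with voom on fragments. It was 0 with an FPKM of at least 1 in all 6 libraries or with the same kind of row in all 6. Both of these settings remove mt-Nd6 before the test, so they cannot say whether its call holds. The count lower was 1, and it was 4 with voom. It was 0 with an FPKM of at least 1 in all 6 libraries or with protein-coding genes only, the filters that remove Snord11 before the test. Leaving out 1 library in turn gave 0 to 1 higher and 0 to 1 lower in the main test, and 1 to 3 higher and 1 to 1 lower with matched loci, the 3 without cymopol replicate 14.

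Pparg went to 0.022 with voom and Txnrd1 to -0.16, where Txnrd1 has an estimate near 0 fragments and so is not measured by voom. Txnrd1 ran from -0.11 (without cymopol replicate 14) to 0.43 when 1 library was left out in turn. Over the same single omissions, the adipocyte median ran from 1.57 to 2.33, that of fatty acid synthesis from 0.70 to 1.28 and that of NRF2 targets from -0.42 to -0.19. Over the settings that tested each gene, the adjusted p ran from 2.59e-05 to 0.804 for Snord11, from 0.00159 to 0.109 for mt-Nd6 and from 0.0176 to 0.923 for Gm44364. Depth limits genes with few fragments most.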
